A study of Rattus norvegicus and Homo sapiens with 12 samples.

Results

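The EGF family ligands and the ERBB receptors they bind were examined in DU145, an established human prostate cancer cell line derived from a brain metastasis. Members were taken by symbol and located in the count table by Ensembl identifier. They comprised 6 ligands (AREG, EREG, HBEGF, TGFA, BTC and NRG1), 3 receptors (EGFR, ERBB2 and ERBB3) and ERRFI1, a feedback inhibitor of the receptors. These are 10 of the 60107 genes listed, and all 10 were among the 14316 genes with enough counts to be tested. Parental DU145 cells (F0) were compared with MSC educated DU145 cells (F2), 3 libraries of each. F2 cells had been grown in conditioned medium from purchased human mesenchymal stem cells (MSC CM) in rounds of 72 h, with 48 h of recovery in complete medium between rounds. The sample labels give 2 rounds and the series text gives 3. F0 carries no treatment in the labels, and both populations were kept in DMEM with fetal bovine serum. The series holds 12 libraries from 4 populations, and the rat PAIII libraries were not used here.

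ERBB receptors are tyrosine kinases at the cell surface. A ligand that binds EGFR, ERBB3 or ERBB4 lets that receptor pair with itself or with another family member, and ERBB2, which has no known ligand of its own, serves as a partner. ERBB3 is nearly inactive as a kinase and signals through the kinase it pairs with. AREG, TGFA, EREG, BTC and HBEGF bind EGFR, and EREG, BTC and HBEGF also bind ERBB4, whereas NRG1 binds ERBB3 and ERBB4. The ligands are made as transmembrane precursors that ADAM proteases cut free, and paired receptors feed the RAS-ERK and PI3K-AKT cascades. DU145 cells are known for abundant EGFR and for making ligands that act on it.

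The part of the ligands that touches the receptor is the EGF-like domain, held together by 3 disulfide bonds between 6 cysteines. Of the 5 EGFR ligands, AREG, EREG, HBEGF and TGFA changed between the populations, and no change was called for BTC (values follow). The coding bases of this domain are shown for all 5, since it is what they share. Each is 108 bases long, runs 5′ to 3′ on the coding strand, was read from the GENCODE v29 transcripts (GRCh38) and has the cysteine codons in capitals.
AREG: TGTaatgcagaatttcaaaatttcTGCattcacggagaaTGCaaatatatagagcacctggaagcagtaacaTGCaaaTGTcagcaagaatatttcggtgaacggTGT
EREG: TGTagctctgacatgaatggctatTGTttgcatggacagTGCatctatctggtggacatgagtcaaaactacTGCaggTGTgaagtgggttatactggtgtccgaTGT
HBEGF: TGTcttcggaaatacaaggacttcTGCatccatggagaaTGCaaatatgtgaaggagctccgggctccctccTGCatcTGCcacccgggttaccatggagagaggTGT
TGFA: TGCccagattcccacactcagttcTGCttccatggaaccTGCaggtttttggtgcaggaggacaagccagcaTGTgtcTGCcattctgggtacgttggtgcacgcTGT
BTC: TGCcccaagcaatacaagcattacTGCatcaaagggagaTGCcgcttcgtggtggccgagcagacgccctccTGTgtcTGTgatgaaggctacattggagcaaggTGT

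All 5 domains had the same spacing, with 7, 4, 10, 1 and 8 residues between successive cysteines, and each was split between exons 3 and 4. The spans, which include the intron between those exons, are chr4:74449172-74450410 for AREG and chr4:74381061-74382675 for EREG on the plus strand. On the minus strand they are chr5:140335997-140342711 for HBEGF, chr2:70456458-70465692 for TGFA and chr4:74750689-74755935 for BTC. Over the 36 encoded residues AREG and HBEGF were identical at 52.8%, as were TGFA and BTC. AREG and EREG, neighbours on chromosome 4, were identical at 33.3%, and the lowest identity was 30.6%, between AREG and BTC. Likeness of the domains did not sort the ligands by direction of change, since AREG and HBEGF, at 52.8%, moved in opposite directions (values follow).

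The receptors differ in the catalytic loop of the kinase, which is shown because it sets ERBB3 apart from the others. The 24 bases encode the loop around the catalytic aspartate of EGFR, whose codon, or the codon aligned with it, is in capitals. All lie in exon 21 on the plus strand, at chr7:55191752-55191775 for EGFR, chr17:39725082-39725105 for ERBB2 and chr12:56097818-56097841 for ERBB3.
EGFR: caccgcGACctggcagccaggaac
ERBB2: cacaggGACttggccgctcggaac
ERBB3: catagaAACctggctgcccgaaac

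ERBB2 encoded the same loop residues as EGFR. ERBB3 differed by D837N, with the residue of EGFR given first and the position counted from its initiator methionine.

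Levels are given in CPM, counts relative to the size of the library as scaled by edgeR's trimmed mean of M-values (TMM). QuantSeq reads only the 3′ ends of transcripts, whatever their length, and levels were therefore compared between genes undivided by length. Gene counts per library ran from 15879480 to 16479239. A count of 0 allows up to 3 counts, or 0.177 to 0.195 CPM, and covers counting error only. Mitochondrially encoded transcripts took 5.71 to 6.003% of gene counts in F0 and 10.2 to 10.6% in F2, and reads outside annotated genes took 9.60 to 10.0% of uniquely placed reads in F0 and 11.3 to 11.9% in F2. The part of either in the results was not tested. Leaving the mitochondrial genes out of the fit, which left 7 members past the threshold as before, cannot test it, since the other genes keep their counts. Of 18 MSC markers, 6 were at 0 in all libraries (THY1, LUM, POSTN, CXCL12, VCAM1 and SPARC) and 12, these included, had under 10 counts in every library. The markers summed to 164 to 185 CPM in F0 and 231 to 250 CPM in F2. Most of this was NT5E, an ectonucleotidase that DU145 also expressed in F0 (147 to 166 CPM, against 215 to 234 CPM in F2). Of the prostate epithelial markers, KRT8, KRT18, KRT19 and EPCAM were abundant, and TP63, KRT5 and FOLH1 were at 0 in all libraries.

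The balance of ligands changed between the populations while no member changed 2-fold. TGFA rose 1.62-fold and HBEGF 1.21-fold in F2, AREG fell to 0.741 and EREG to 0.805 of the F0 level, and NRG1 fell at a low level. EGFR rose 1.10-fold, ERRFI1 rose 1.20-fold, and ERBB2, ERBB3 and BTC did not pass the threshold (edgeR's quasi-likelihood test, Benjamini-Hochberg adjusted p under 0.05 over all tested genes). Thus 7 of 10 members passed, 4 higher and 3 lower, where 18.2% of tested genes passed, 9.49% higher and 8.67% lower. Of the 8650 tested genes with a mean of at least 10 CPM 23.3% passed, as did 6 of the 7 members at that level. The F0 and F2 libraries did not overlap for 8 members, against 34% of tested genes. The members were chosen with earlier results of these data known, so these shares are not independent evidence. None of the members was past the threshold and at least 2-fold changed by edgeR, by edgeR at an unadjusted p under 0.05 or by DESeq2, where 1.67% of tested genes were by edgeR. The median size of change was 0.31 on the log2 scale for the members past the threshold and 0.35 for all genes past it. These are levels of RNA, and no ligand or receptor protein was measured in these files. In such bulk libraries, fewer cells that express a gene and less RNA of it per cell cannot be told apart. Nothing in the labels says whether the 3 F2 libraries came from separate selections. The p-values set each difference against the spread between libraries of the same population, which may not include the spread between selections.

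**Figure D1:**
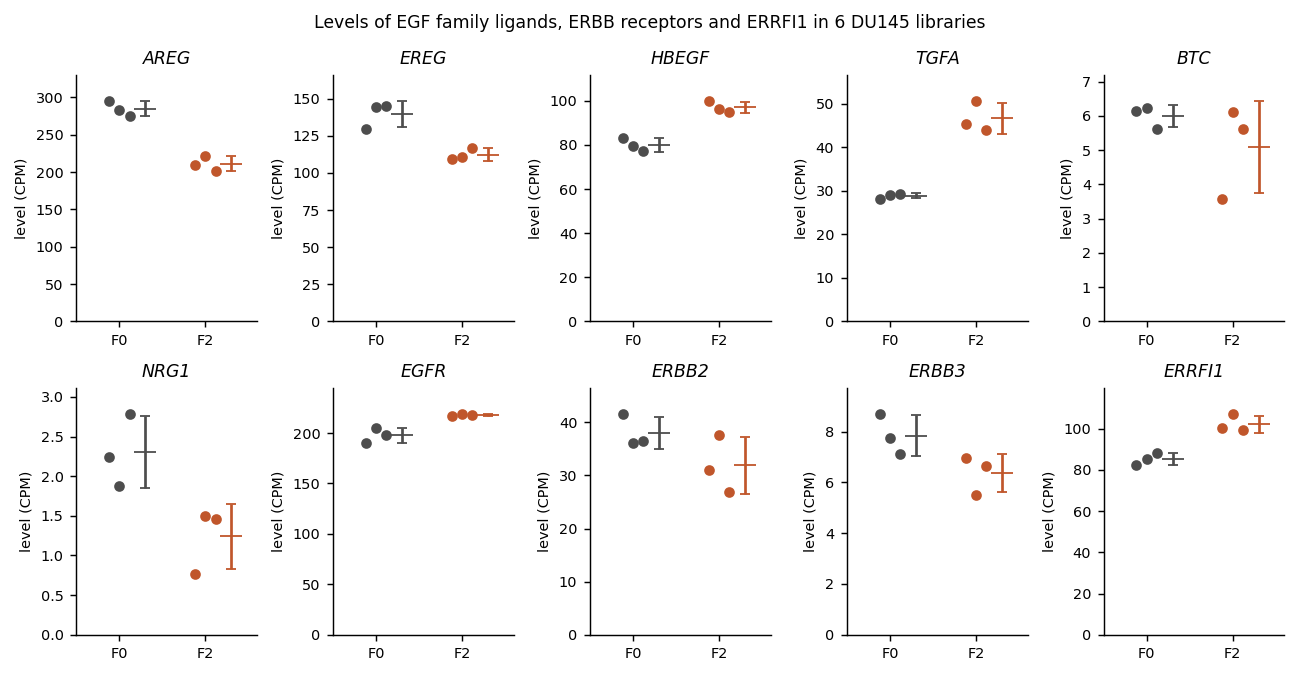
Level of each member in CPM (TMM scaled, linear axes from 0) in the 3 F0 and 3 F2 DU145 libraries. Points are libraries, and the bar beside them is the mean with its SD. TGFA, HBEGF, EGFR and ERRFI1 lie higher in every F2 library, AREG, EREG, NRG1 and ERBB3 lie lower in every F2 library, and ERBB2 and BTC overlap.

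Among the ligands, AREG (amphiregulin, ENSG00000109321; GRCh38 chr4:74445134-74455009) was the most abundant in both populations. Its level was 295, 283 and 275 CPM in F0 and 210, 222 and 201 CPM in F2. Every F2 library lay below every F0 library. Means were 285 ± 9.92 and 211 ± 10.1 CPM (± SD, 3 libraries each), which gives -0.43 as log2 fold change (SE 0.048, 95% confidence interval -0.53 to -0.33, edgeR adjusted p 2.34e-06). With 3 libraries against 3, an exact two-sided permutation test of a single gene cannot go below 0.1, and AREG gave 0.1, as did each of the other members whose libraries did not overlap.

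EREG (epiregulin, ENSG00000124882; chr4:74365143-74388751), which binds both EGFR and ERBB4, had 129, 145 and 145 CPM in F0 and 109, 111 and 117 CPM in F2. The populations did not overlap, and the F0 replicate 1 library lay nearest to the F2 libraries. Its mean fell from 140 ± 8.86 to 112 ± 4.17 CPM (log2 fold change -0.31, SE 0.054, interval -0.43 to -0.20, edgeR adjusted p 3.76e-04).

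TGFA (transforming growth factor alpha, ENSG00000163235; chr2:70447280-70554193, minus strand) binds EGFR alone and had the largest rise among the members. Its level was 28.2, 29.01 and 29.4 CPM in F0 and 45.3, 50.6 and 44.0 CPM in F2. The gap between the populations was wider than the spread within either. The means were 28.8 ± 0.610 and 46.6 ± 3.50 CPM, with 0.69 as log2 fold change (SE 0.072, interval 0.54 to 0.84, edgeR adjusted p 1.01e-06).

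HBEGF (heparin-binding EGF-like growth factor, ENSG00000113070; chr5:140332843-140346631, minus strand), whose precursor is also the diphtheria toxin receptor, had 83.2, 79.3 and 77.1 CPM in F0 and 99.9, 96.0 and 94.9 CPM in F2. All F2 libraries were above all F0 libraries. Its mean rose from 79.9 ± 3.09 to 97.0 ± 2.59 CPM (log2 fold change 0.28, SE 0.052, interval 0.17 to 0.39, edgeR adjusted p 8.17e-04). AREG, EREG, TGFA and HBEGF passed the threshold under all 13 alternative settings, leaving out any of the 6 libraries included.

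The remaining ligands were scarce. BTC (betacellulin, ENSG00000174808; chr4:74744759-74794686, minus strand) had 6.14, 6.24 and 5.62 CPM in F0 and 3.58, 6.10 and 5.61 CPM in F2. The F2 replicate 1 library alone lay well below the others. The log2 fold change was -0.24 (SE 0.18, interval -0.60 to 0.13, edgeR adjusted p 0.398), and without the F2 replicate 1 library it was -0.03 (edgeR adjusted p 0.931).

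NRG1 (neuregulin 1, ENSG00000157168; chr8:31639386-32767959), a ligand of ERBB3 and ERBB4, had 38, 31 and 47 counts in F0 and 12, 23 and 23 counts in F2. That was 2.24, 1.88 and 2.78 CPM against 0.767, 1.49 and 1.47 CPM. The populations did not overlap, but counting error alone gives a coefficient of variation of 16.1% in F0 and 22.7% in F2 at these counts, against 19.8% and 33.1% observed. The log2 fold change was -0.89 (SE 0.29, interval -1.50 to -0.27, edgeR adjusted p 0.0412). DESeq2 did not call it (adjusted p 0.124), and leaving out any library other than F2 replicate 2 ended the call, with log2 fold changes from -1.02 to -0.63 and edgeR adjusted p from 0.0524 to 0.192.

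Among the receptors, EGFR (ENSG00000146648; chr7:55019021-55211628) was by far the most abundant. Its level was 190, 205 and 198 CPM in F0 and 217, 219 and 217 CPM in F2. The F2 libraries lay close together and above all F0 libraries. The means were 198 ± 7.57 and 218 ± 0.785 CPM (log2 fold change 0.14, SE 0.045, interval 0.04 to 0.23, edgeR adjusted p 0.0395). With library size alone in place of TMM the change was 0.05 (adjusted p 0.476), and leaving out any library other than F2 replicate 2 ended the call, with adjusted p from 0.0655 to 0.127 and log2 fold changes from 0.11 to 0.16.

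ERBB2 (HER2, ENSG00000141736; chr17:39687914-39730426) had 41.5, 36.1 and 36.5 CPM in F0 and 31.0, 37.7 and 27.0 CPM in F2. The F2 replicate 2 library lay within the F0 range and the other F2 libraries lay below it. The log2 fold change was -0.26 (SE 0.096, interval -0.46 to -0.05, edgeR adjusted p 0.0749), and the exact two-sided permutation p was 0.3. Without the F2 replicate 2 library it was -0.39 (edgeR adjusted p 0.00284), and without the F2 replicate 3 library -0.15 (edgeR adjusted p 0.338). MIEN1, on the opposite strand, overlaps the last exon of ERBB2, and whether the counting used strand is not given in the sources used here. MIEN1 had 53.8 ± 1.87 CPM in F0 and 52.1 ± 1.33 CPM in F2.

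ERBB3 (HER3, ENSG00000065361; chr12:56076799-56103505) was low, with 8.68, 7.75 and 7.10 CPM in F0 and 6.97, 5.52 and 6.63 CPM in F2. Each F2 library was below each F0 library, by a gap smaller than the SD. The log2 fold change was -0.30 (SE 0.14, interval -0.60 to -0.0013, edgeR adjusted p 0.161), and it passed under 0 of 13 alternatives. AC034102.2, on the same strand, overlaps the last exon of ERBB3 and had means of 0.0986 CPM in F0 and 0.0852 CPM in F2. Whether reads shared by both genes were left out of the ERBB3 counts was not tested, so its level may be understated.

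ERRFI1 (MIG6, ENSG00000116285; chr1:8004404-8026308, minus strand) encodes a cytoplasmic protein that binds the active EGFR kinase domain and inhibits it, and its transcription is induced by EGFR signalling. It had 82.3, 85.3 and 88.1 CPM in F0 and 100, 107 and 99.4 CPM in F2. All F2 libraries were above all F0 libraries. The log2 fold change was 0.26 (SE 0.053, interval 0.15 to 0.37, edgeR adjusted p 0.00151). It passed under all 13 alternatives, with the smallest change, 0.17, under library size alone (adjusted p 0.023). Per EGFR count, ERRFI1 counts were 0.415 to 0.444 in F0 and 0.457 to 0.489 in F2, so the ratio was higher in each F2 library.

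**Figure D2:**
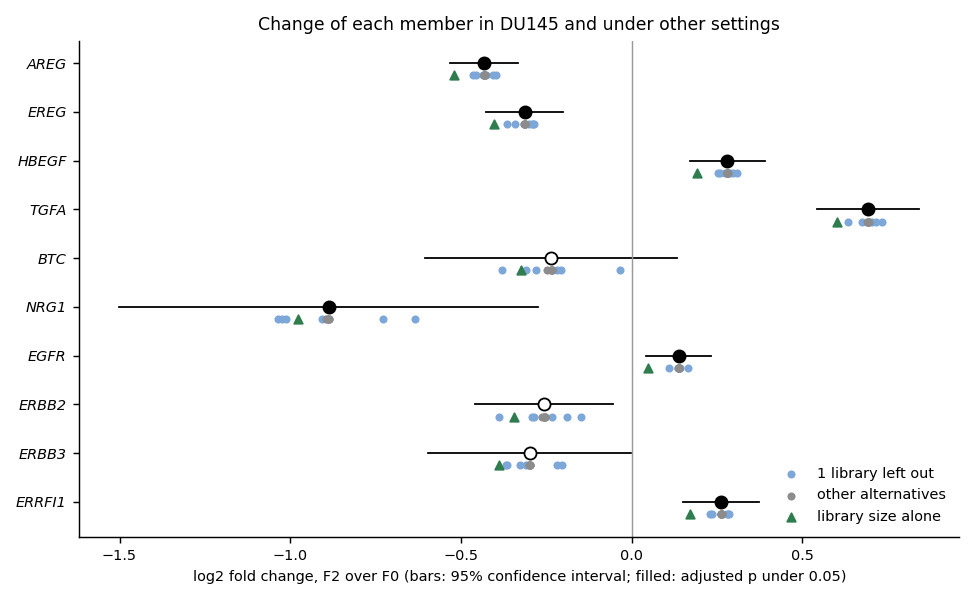
Log2 fold change of each member, F2 over F0, with its 95% confidence interval (circles, filled where the edgeR adjusted p is under 0.05). Small points below each circle are the values with 1 library left out (blue), with library size alone (green triangle) and under the other alternatives (grey). All alternatives keep the direction of all 10 members, and the triangle of EGFR lies at 0.05.

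The rest of the family was scarce or not detected. ERBB4, the fourth receptor, had 1 count in all 6 libraries, EPGN (epigen) had 1 count and NRG3 had 0. EGF itself had 1 to 10 counts per library and was not tested. NRG2 (neuregulin 2) had 5.26, 5.45 and 5.21 CPM in F0 and 6.91, 8.57 and 7.14 CPM in F2. It was higher in every F2 library, by 0.51 on the log2 scale (SE 0.14, edgeR adjusted p 0.0177). Its call was lost without F0 replicate 3 (edgeR adjusted p 0.054) or F2 replicate 2 (edgeR adjusted p 0.0769) and by DESeq2 (adjusted p 0.0691). NRG4, with 8 to 22 counts per library and means of 0.759 ± 0.496 (F0) and 0.922 ± 0.278 CPM (F2), was not past the threshold (adjusted p 0.71). Of the 6 genes, 2 were tested and 1 passed.

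The order of mean levels in F0 was AREG, EGFR, EREG, ERRFI1, HBEGF, ERBB2, TGFA, ERBB3, BTC and NRG1. Neighbours in that order were apart in all libraries except ERRFI1 and HBEGF, whose ranges overlapped. In F2 the order was EGFR, AREG, EREG, ERRFI1, HBEGF, TGFA, ERBB2, ERBB3, BTC and NRG1. There the ranges of EGFR and AREG, of ERRFI1 and HBEGF, and of ERBB3 and BTC overlapped. TGFA and ERBB2 exchanged places: ERBB2 lay above TGFA in every F0 library, and TGFA lay above ERBB2 in every F2 library. The ratio of neighbouring means was widest between ERBB2 and ERBB3 in F2, at 5.002.

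Ratios between members within a library do not depend on how libraries are scaled. AREG counts per TGFA count were 10.5, 9.77 and 9.38 in F0 and 4.64, 4.38 and 4.58 in F2. The mean ratio was thus 2.18-fold lower in F2 (9.87 ± 0.555 against 4.53 ± 0.135). AREG per HBEGF was likewise lower in F2, at 3.56 ± 0.0150 in F0 and 2.18 ± 0.113 in F2, with no overlap. AREG per EREG ranged from 1.90 to 2.28 in F0 and from 1.72 to 2.002 in F2, so the 2 neighbouring genes were not separated by this ratio. TGFA per EGFR was 0.141 to 0.148 in F0 and 0.202 to 0.231 in F2, and AREG per EGFR was 1.38 to 1.55 in F0 and 0.926 to 1.01 in F2. EGFR per ERBB2 was 4.58 to 5.69 in F0 and 5.80 to 8.06 in F2. No test was made on these ratios, which combine the changes of single members given above and are not further results.

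Of the summed counts of the 6 ligands, AREG made up 52.6 ± 1.45% in F0 and 44.6 ± 1.11% in F2. TGFA made up 5.33 ± 0.155% and 9.84 ± 0.489%, and HBEGF 14.8 ± 0.469% and 20.5 ± 0.786%. Neither share overlapped between the populations. EREG made up 25.8 ± 1.78% and 23.7 ± 1.29%, and its range overlapped, from 23.8 to 27.1% in F0 and from 22.7 to 25.2% in F2. The summed level of the ligands was 541 ± 5.30 CPM in F0 and 473 ± 11.7 CPM in F2, lower in each F2 library. The summed level of the 3 receptors was 244 ± 4.67 and 256 ± 5.40 CPM, with EGFR at 79.1 to 82.4% of receptor counts in F0 and 83.5 to 86.6% in F2.

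**Figure D3:**
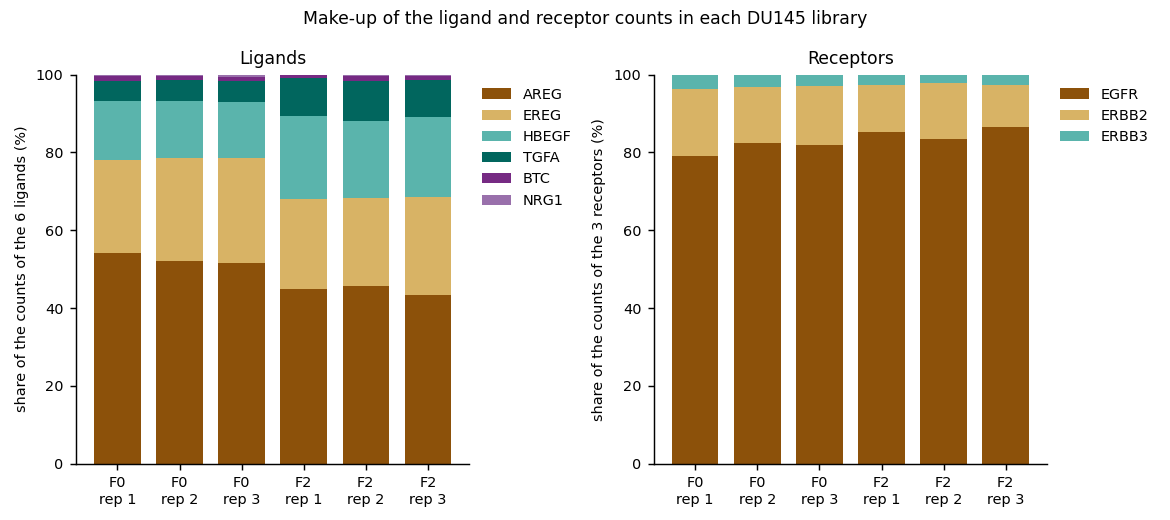
Share of each ligand in the summed counts of the 6 ligands (left) and of each receptor in the summed counts of the 3 receptors (right), in percent, for each DU145 library. AREG takes 51.5 to 54.2% of ligand counts in F0 and 43.4 to 45.5% in F2, while the TGFA band widens from 5.18 to 5.49% to 9.47 to 10.4%.

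AREG, EREG, BTC and EPGN lie together on chromosome 4, next to a group of chemokine genes. The start of EREG lies 80.0 kb before that of AREG and the start of BTC 349.6 kb after it. Of 19 genes listed there, these ligands included, 15 were tested, of which 2 rose and 4 fell, AREG and EREG among the falls. That is 40% past the threshold, against 18.2% of all tested genes. The share counts AREG and EREG, around which the list was drawn with earlier results of these data known. It is therefore not independent evidence of a change in this region. Besides AREG and EREG, PARM1, a mucin-like membrane protein gene 488.0 kb beyond AREG, fell from 7.75 ± 0.822 to 4.73 ± 0.643 CPM (log2 fold change -0.71, SE 0.15, edgeR adjusted p 0.00262). USO1, a vesicle tethering factor 1279.5 kb beyond AREG, fell from 46.9 ± 1.36 to 39.4 ± 4.55 CPM (log2 fold change -0.25, edgeR adjusted p 0.025). Leaving out F0 replicate 2 or 3, or F2 replicate 1 or 3, ended the USO1 call (adjusted p up to 0.147).

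On the other side, 575.7 kb before AREG, CXCL1 rose from 3.67 ± 0.0175 to 6.10 ± 0.638 CPM (log2 fold change 0.73, SE 0.16, edgeR adjusted p 0.00305). CXCL8, 704.6 kb before AREG, rose from 27.8 ± 3.04 to 35.6 ± 3.17 CPM (log2 fold change 0.35, adjusted p 0.00747), and without F2 replicate 3 it missed the threshold at 0.28 (adjusted p 0.0549). Both encode neutrophil-attracting chemokines. Their neighbours CXCL5, CXCL3 and CXCL2 had log2 fold changes of 0.31, 0.32 and 0.19 and did not pass (adjusted p 0.14, 0.377 and 0.301). Nor did MTHFD2L (-0.12), RCHY1 (-0.17), THAP6 (0.37), CDKL2 (0.31) or G3BP2 (-0.17). CXCL8 and CXCL1 thus moved opposite to AREG and EREG within the same stretch of the chromosome.

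**Figure D4:**
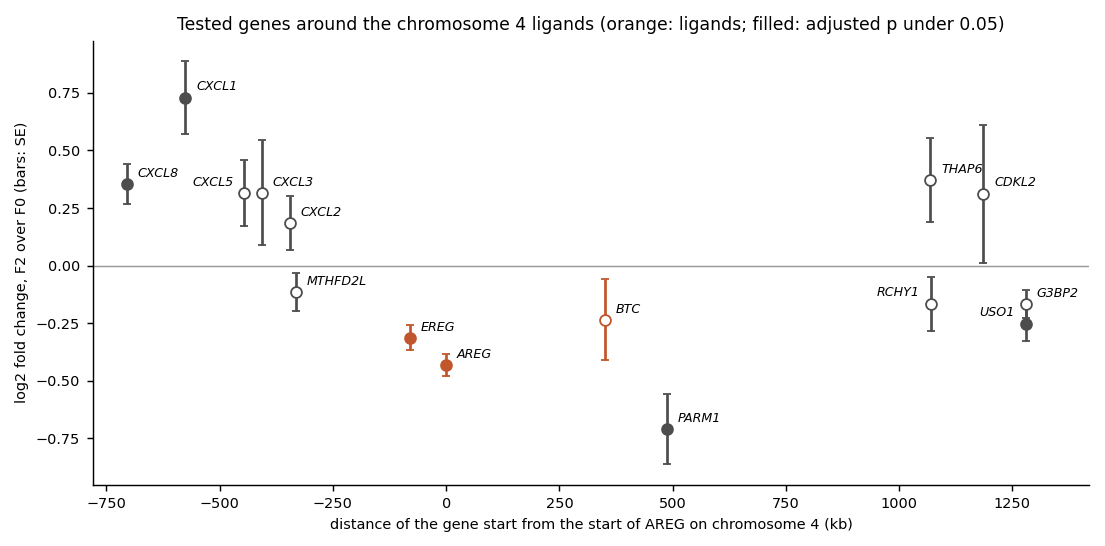
Log2 fold change with SE of the 15 tested genes around the chromosome 4 ligands, against the distance of each gene start from the start of AREG in kb. Ligands are orange, and filled points have an edgeR adjusted p under 0.05. CXCL8 and CXCL1 lie above 0 on the left, and EREG, AREG and PARM1 lie below it in the middle.

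The genes around the receptors are given by role, from lists drawn up for the pathway. All these lists were chosen with earlier results of these data known, so their shares past the threshold are not independent evidence. Among 11 genes of ligand shedding, 10 were tested, 3 rose and 2 fell (50% past the threshold against 18.2% of all tested genes), with a median log2 fold change of 0.06 against -0.0025 for all tested genes. ADAM17, the main sheddase of AREG, EREG, TGFA and HBEGF, had 155, 148 and 139 CPM in F0 and 115, 120 and 120 CPM in F2. It fell by 0.31 on the log2 scale (SE 0.051, edgeR adjusted p 1.98e-04), and no library left out ended that call. RHBDF2, which carries ADAM17 to the cell surface, was at -0.19 on the log2 scale (adjusted p 0.0482), and leaving out any of the 6 libraries ended the call (adjusted p 0.0659 to 0.167).

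Among the sheddase genes that rose, ADAM12 went from 7.51 ± 0.901 to 10.6 ± 1.61 CPM (log2 fold change 0.50, edgeR adjusted p 0.0159). ADAM19 rose by 0.29 (adjusted p 0.0102), and the ADAM17 partner RHBDF1 by 0.32 (adjusted p 0.0258). ADAM12 and RHBDF1 each lost the call without F0 replicate 1 or 2, or F2 replicate 1 or 3 (adjusted p up to 0.102 and 0.104). ADAM19 lost it without F0 replicate 2 (adjusted p 0.0919). With DESeq2, 3 of the list passed in place of 5, without RHBDF1 (adjusted p 0.0786) and RHBDF2 (adjusted p 0.123). With library size alone, RHBDF1 (adjusted p 0.0898) and ADAM19 (adjusted p 0.0595) did not pass, while ADAM10 passed as lower (-0.19, adjusted p 0.0182), which left 4 of the list past the threshold.

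Of 18 adaptors and members of the RAS-ERK cascade, all tested, 2 rose and 2 fell (22.2% of them past the threshold, near the 18.2% of all tested genes), and the median was -0.01. BRAF, a kinase that activates MEK, rose from 9.46 ± 0.156 to 12.9 ± 0.727 CPM (log2 fold change 0.45, SE 0.11, edgeR adjusted p 0.00619). MAP2K1, which encodes MEK1, rose by 0.30 (adjusted p 0.00448). NRAS fell by 0.22 (adjusted p 0.0177) and MAP2K2, which encodes MEK2, fell by 0.18 (adjusted p 0.044). NRAS lost its call without F0 replicate 2 or 3, or F2 replicate 1 or 2, with log2 fold changes from -0.24 to -0.16 and adjusted p up to 0.115. MAP2K2 lost it without F0 replicate 1 or 2, or F2 replicate 1 or 3, with log2 fold changes from -0.21 to -0.11 (the smallest without F0 replicate 1, adjusted p 0.212), and by DESeq2 (adjusted p 0.059). With library size alone 7 genes of the list passed in place of 4.

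In the PI3K-AKT arm, 13 genes were tested, 3 rose and 1 fell, which is 30.8% past the threshold against 18.2% of all tested genes, with a median of -0.02. PIK3R1, which encodes the p85 alpha regulatory subunit, fell from 22.2 ± 0.982 to 17.0 ± 0.770 CPM (log2 fold change -0.38, SE 0.087, edgeR adjusted p 0.00458). The kinases AKT1 and AKT2 each rose by 0.20 (adjusted p 0.00489 and 0.00779), and neither passed with library size alone (0.11 for each, adjusted p 0.0888 and 0.109). AKT2 also lost the call without F0 replicate 3 (adjusted p 0.0503) or F2 replicate 1 (adjusted p 0.0737). PIK3CD, a catalytic subunit best known from white blood cells, rose by 0.36 (adjusted p 0.0405), a call lost without F0 replicate 2 or 3, or F2 replicate 1 or 3 (adjusted p up to 0.152), by DESeq2 (adjusted p 0.115) and with library size alone (adjusted p 0.103).

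All 15 genes of ubiquitination, endocytosis and dephosphorylation of the receptors were tested and 1 passed, or 6.67% against 18.2% of all tested genes, with a median of 0.02. It was SH3KBP1, an adaptor that joins CBL to the endocytic machinery, which fell from 539 to 468 CPM (log2 fold change -0.20, SE 0.045, edgeR adjusted p 0.00353). CBL itself, the main ubiquitin ligase of EGFR, had 82.7 CPM in F0 and 81.4 CPM in F2.

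Among 24 early and delayed response genes of growth factor signalling, 23 were tested, 13 rose and 1 fell, with a median log2 fold change of 0.31. The list shares genes with feedback and early response groups whose rise in these samples was known when it was drawn up, so its direction is not independent evidence. JUN, a subunit of AP-1, rose from 108 ± 3.13 to 191 ± 5.07 CPM (log2 fold change 0.82, SE 0.048, edgeR adjusted p 3.18e-10). DUSP6 and DUSP4, phosphatases that inactivate ERK, rose by 0.79 (adjusted p 6.25e-08) and 0.77 (adjusted p 0.00101). EGR1, an immediate early transcription factor, fell by 0.27 (adjusted p 0.0191), a call lost without F0 replicate 2 or 3, or F2 replicate 1 or 2 (adjusted p up to 0.138). The share past the threshold was 60.9%, against 18.2% of all tested genes, and for the same reason it is not independent evidence either.

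**Figure D5:**
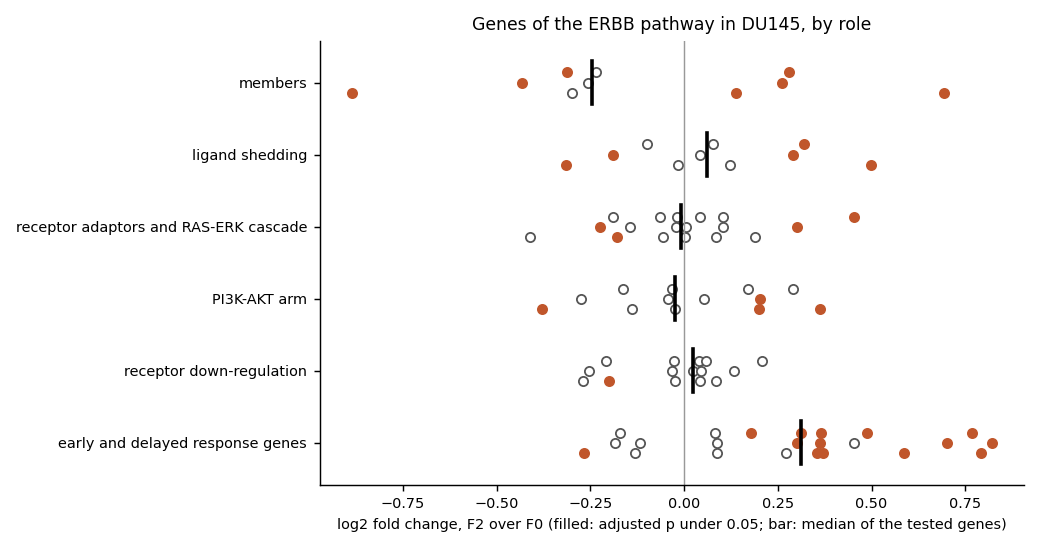
Log2 fold change, F2 over F0, of every tested gene in 6 lists of the ERBB pathway. Filled points have an edgeR adjusted p under 0.05, and the black bar is the median of the list. The response genes lie mostly to the right of 0, with a median of 0.31, and the medians of shedding, cascade, PI3K-AKT and down-regulation genes lie between -0.02 and 0.06.

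Over the 6 libraries, the genes most like AREG in log2 CPM, among 8649 others with a mean of at least 10 CPM, were SNRPN (Pearson r 0.998), GCN1 (0.998) and CYP1B1 (0.996). Those most like EGFR were HAUS2 (0.997), FBXL4 (0.997) and RAPH1 (0.995). HAUS2 passed the threshold (edgeR adjusted p 0.0156), while FBXL4 and RAPH1 did not (edgeR adjusted p 0.0672 and 0.196). These are descriptions across libraries that fall into 2 populations, and r was over 0.95 for 261 genes with AREG and for 114 with EGFR. CYP1B1, a cytochrome P450, went from 111 to 72.4 CPM, and SNRPN, a component of spliceosomal particles, from 169 to 124 CPM.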

How the data were processed

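Total RNA (500 ng per library) was made into QuantSeq 3′ libraries and sequenced as 101-base single reads. Alignment and counting were done by the authors with the Bluebee tools supplied for the kit, and unnormalized counts per Ensembl gene were deposited. The submitters' processing notes name STAR 2.5.2a, HTSeq 0.6.0 and GRCh38, and the annotation and strand setting are not given in the sources used here. Symbols and coordinates were taken from GENCODE v29 (GRCh38), which matched 56104 of 60107 identifiers.

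Counts of the 6 DU145 libraries (15879480 to 16479239 gene counts) were filtered with filterByExpr (minimum count 10, total 15), scaled by TMM and fitted in edgeR 4.0.16 (R 4.3.3) by quasi-likelihood, with population as the only term, with Benjamini-Hochberg adjustment over all tested genes and a threshold of 0.05. The fit was tested on simulated data with 200 genes changed, by sizes larger than the changes of most members. It did not cover changes as small as those of EGFR or ERRFI1. CPM used TMM-scaled library sizes. Standard errors are the log2 fold change divided by the root of F. Alternatives were other scalings, other filters, DESeq2 1.42.0, the replicate number as a block, the fit without mitochondrially encoded genes, and each library left out in turn.

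Members and lists were chosen with earlier results of these data known. Outside the members, up to 3 rises and 3 falls past the threshold were named per list, with every tested chromosome 4 neighbour and the 3 genes most like AREG and EGFR. CBL, MIEN1, NRG4 and untested family members were named after their values were seen, and the background at 10 CPM was added after seeing the data. Of the cell type markers, MSC markers gave 2 rises (NT5E and NES) and 1 fall (FN1) of 5 tested. Epithelial markers gave 4 rises (KRT8, KRT18, KRT19 and EPCAM) and 1 fall (CDH1, log2 fold change -1.27) of 6 tested. These are 60% and 83.3% past the threshold, against 18.2% of all tested genes.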

Additional observations from a re-analysis of the deposited data

How the results depend on the processing

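Directions of all 10 members held under the 13 alternatives. AREG, EREG, HBEGF, TGFA and ERRFI1 passed the threshold under each, ERBB3 and BTC under none. Between 5 and 8 members passed in all settings. With library size alone, which moved the median of all genes to -0.09, 832 genes were higher and 2805 lower in F2 (22.9% higher among those past the threshold, against 52.3% with TMM), EGFR was at 0.0478 (adjusted p 0.476) and ERBB2 at -0.34 (adjusted p 0.0143). ERBB2 also passed with no filter on low counts (-0.25, adjusted p 0.016), and NRG1 did not with DESeq2 (-0.89, adjusted p 0.124), where 1911 genes passed. Leaving out 1 library gave 1670 to 2621 genes past the threshold and 761 to 1244 lower in F2, the fewest without F0 replicate 2. It gave log2 fold changes of 0.11 to 0.16 for EGFR, -0.39 to -0.15 for ERBB2 and -1.04 to -0.63 for NRG1. The cause of these shifts was not tested, beyond the fewer samples. Of 1194 values of 92 other genes of the lists, 60 lost the threshold, 17 gained it and 0 reversed.

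Deviations of same-numbered libraries correlated at 0.17, -0.04 and 0.17, and those of differently numbered libraries at -0.20 to 0.07. With 3 libraries per population, these values cannot decide whether replicate numbers pair the samples. With the replicate block 2867 genes and 8 members passed, ERBB2 being the added member (-0.26, adjusted p 0.0291).

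NRG1, BTC and ERBB3 had 12 to 147 counts per library. In F2 counting error alone gives a coefficient of variation of 22.7%, 11.2% and 10.0% for them, against 33.1%, 26.2% and 11.9% observed.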
